A study of Mus musculus with 12 samples.

Results

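The genes examined here encode the sensors, the adaptor, the caspases and the pore former of the macrophage inflammasomes. They are Nlrp3, Nlrc4, Naip2, Naip5, Mefv, Pycard, Casp1, Casp4, Casp8 and Gsdmd, chosen by name for their roles, and make up 10 of the 16920 genes in the count tables. All 10 were among the 12064 genes that passed the filter on low counts. Their mRNA was measured by RNA sequencing in mouse peritoneal macrophages, in 4 groups of 3 libraries (12 in all). WT cells received PBS or LPS (lipopolysaccharide, the endotoxin of Gram-negative bacteria), and so did cells labelled Ythdf1 knockout (KO), with LPS at 1 µg/mL and both treatments for 6 h. All mice were young adults on a C57BL/6 background, and no further allele is named. Cells were drawn into the peritoneum with an irritant (starch broth in the series record, thioglycollate in the methods) and cultured overnight before treatment. The labels describe the replicates of a group as independent biological samples without saying how many animals each held, so that p-values measure the spread between these samples. The question put to the data was how the LPS response of the inflammasome genes compared between the genotype labels.

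An inflammasome is a cytosolic protein complex that forms when a sensor meets a microbial product or a sign of cell damage. The sensor recruits the adaptor ASC (Pycard) and caspase-1, which matures interleukin-1β and interleukin-18 and cuts gasdermin D (Gsdmd). The freed amino-terminal part of gasdermin D forms pores in the plasma membrane, and the cell may die by pyroptosis. In macrophages, a priming signal such as LPS is known to raise the mRNA of some components before a second signal triggers assembly, and intracellular LPS is sensed directly by caspase-11, the product of mouse Casp4.

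Library totals ranged from 21546274 to 22017005 counts, and the floor of 3 counts equalled 0.105 to 0.187 CPM (normalised read count, scaled to library size). Markers of macrophages were abundant in every group, with a summed level of 17170 to 19940 CPM over 8 genes. Ythdf1, the targeted gene, showed no decrease that passed in the KO-labelled libraries. Its mean with PBS was 43.5 ± 1.54 CPM (SD, n = 3) for WT and 57.2 ± 1.53 CPM for the KO label, and with LPS 202 ± 9.37 and 198 ± 6.94 CPM. The differences were 0.40 ± 0.06 on the log2 scale with PBS (adjusted p = 1.3e-04) and -0.03 ± 0.06 with LPS (adjusted p = 0.72). These counts cover the whole gene and do not separate its exons. Every genotype difference given here therefore rests on the library labels. WT LPS replicate 1 stood apart from its group, at a chi-square distance (mean over genes) of 30.5 from replicate 2 and 23.7 from replicate 3, which were 2.95 apart. In KO LPS, replicates 2 and 3 were 15.3 apart, and replicate 1 lay 6.87 and 5.43 from them. Pairs within the PBS groups were 2.73 to 4.57 apart. Values of the 10 genes without WT LPS replicate 1 are given below. Marker sums of other cell types were low, but those of 4 skeletal muscle genes moved with the genotype label, at 24.9 to 30.6 CPM in WT LPS libraries and 0.123 to 0.249 CPM in KO LPS libraries. Under PBS they lay at 15.6 to 19.5 CPM in WT and 0.106 to 16.4 CPM in KO-labelled libraries. Of 8 neutrophil markers, 6 were in the tables and summed to 86.4 to 88.8 CPM in WT LPS against 112 to 121 CPM in KO LPS, mostly from Mmp8, while S100a9 held at most 2 counts in any library. With PBS those sums were 103 to 106.5 CPM in WT and 150.5 to 153.9 CPM in KO-labelled libraries. The part of these transcripts in the differences below was not tested. In bulk RNA, fewer cells of a type and less RNA per cell cannot be told apart.

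LPS against PBS was compared within each genotype label first. In WT macrophages, 9 of the 10 genes passed the test (adjusted p under 0.05), 7 higher and 2 lower with LPS (6 and 4 under upper-quartile scaling or library totals). Among all genes tested, 76.7% passed, 36.5% higher and 40.2% lower, so the number that passed was near that background. Upper-quartile scaling called 9666 of all genes, 3146 of them higher, and library totals called 10470, with 2223 higher (10589 and 2202 in KO-labelled cells). The median log2 fold change over the 10 genes was 2.16, against -0.05 over all 12064 genes, and the median size regardless of direction was 2.16 against 0.69. In KO-labelled macrophages all 10 passed, 8 higher and 2 lower, or 6 and 4 under library totals (79.9% of all genes, 38.8% higher and 41.1% lower), with a median of 2.36 against -0.04 and a median size of 2.36 against 0.81. The comparisons share libraries, so their values are set side by side and are not independent of each other.

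**Figure D1:**
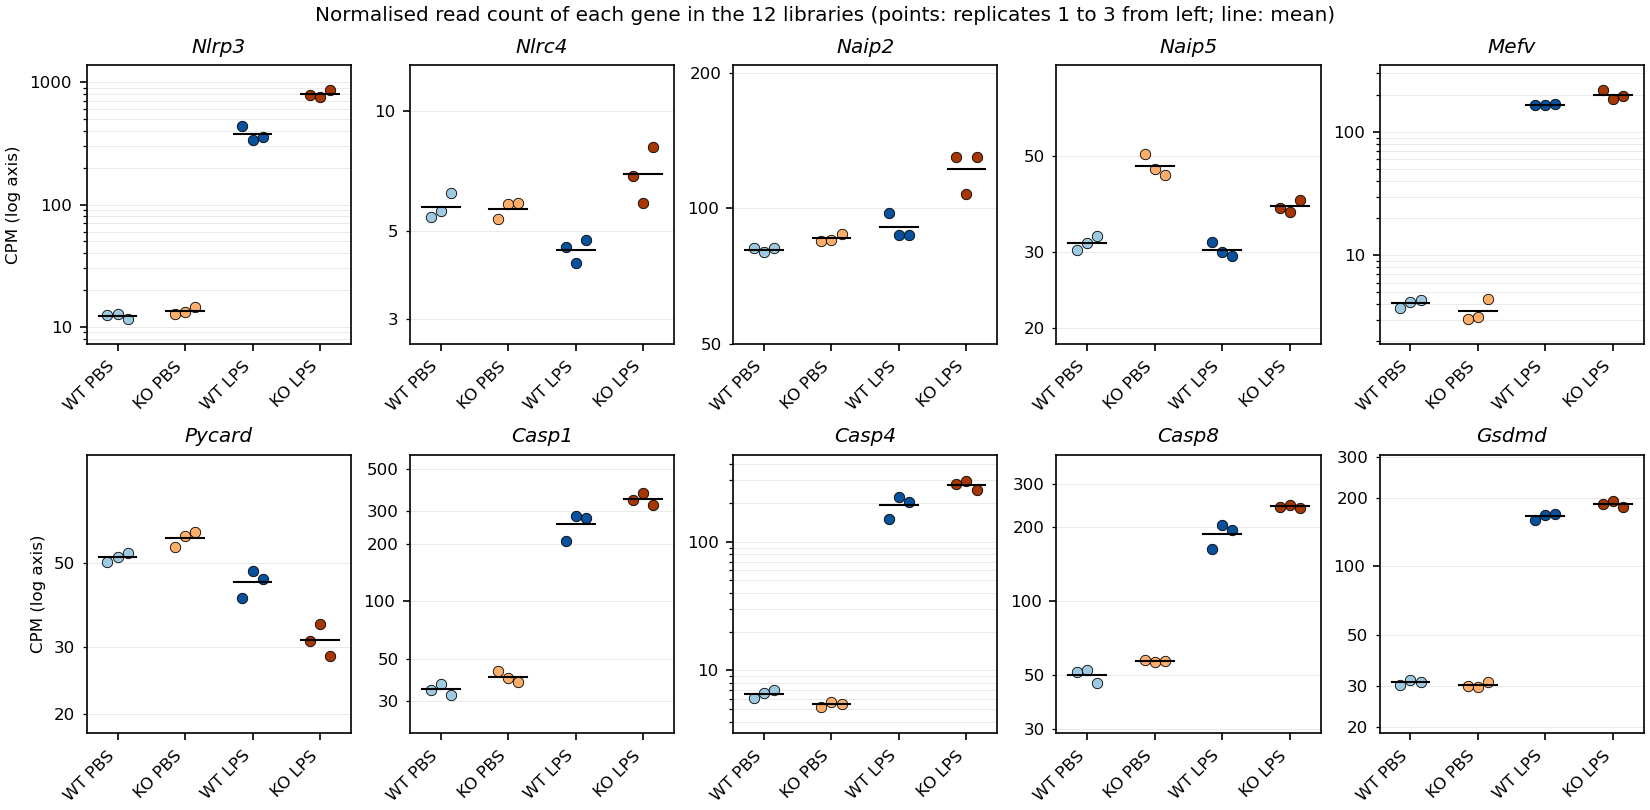
Normalised read count (CPM, log axis, a scale of its own for each gene) of the 10 genes in the 12 libraries, grouped by genotype label and treatment, with 1 point per library, replicates 1 to 3 from left to right, and a line at the mean of the group. Nlrp3 rose from 11.5 to 12.6 CPM in WT PBS to 339 to 441 CPM in WT LPS, with KO LPS at 752 to 860.4 CPM, while Pycard was lowest in KO LPS at 28.4 to 34.3 CPM.

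The sensors split into a pair that rose steeply with LPS and a trio that moved little. Nlrp3 (gene 216799, chr11:59541569-59566955, plus strand, GRCm38.p6, 10 exons in its longest coding transcript) encodes the sensor of ion efflux and membrane disturbance. Its level was 12.4, 12.6 and 11.5 CPM in WT PBS replicates 1 to 3 and 441, 339 and 354 CPM in WT LPS. Under the KO label it was 12.7, 13.1 and 14.4 CPM with PBS and 792, 752 and 860.4 CPM with LPS. The LPS libraries lay far above the PBS libraries under both labels, and the KO LPS libraries lay above every WT LPS library. The LPS response was 4.95 ± 0.10 on the log2 scale (SE, adjusted p = 8.9e-17), a 31.0-fold rise, in WT and 5.90 ± 0.11 (adjusted p = 1.3e-17), a 59.7-fold rise, in KO-labelled cells. Within WT LPS, replicate 1 held the highest Nlrp3 level, and without it the WT response was 4.83.

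Mefv (gene 54483, chr16:3706974-3718211, minus strand, 10 exons) encodes pyrin, which responds to the inactivation of the GTPase RhoA. It stood at 3.76, 4.15 and 4.36 CPM in WT PBS and 3.045, 3.16 and 4.46 CPM in KO PBS. With LPS it reached 165, 165 and 170 CPM in WT and 218, 185 and 196 CPM in KO-labelled cells. Treatment groups were far apart, and the PBS libraries of the genotype labels overlapped. The rise was 40.7-fold in WT (log2 fold change 5.35 ± 0.11, adjusted p = 6.2e-17) and 56.1-fold in KO-labelled cells (5.81 ± 0.11, adjusted p = 2.2e-17), the largest fold of the 10 genes in WT.

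The 250 bases before a listed start of Nlrp3 (the first of 2) and of Mefv (a start inside the gene span above) are shown because these sensors rose most with LPS. Sequences are from the RefSeq promoter table (GRCm38.p6, 5′ to 3′ on the gene's strand), which held windows for 9 of the 10 genes. They were searched on both strands for the NF-κB-like letters GGGNNNTTCC and the interferon-response-like letters GAAANNGAAA. Neither window held a match, nor did the other Nlrp3 window, so both are in lower case throughout. Of 32851 windows of the same length, 4.65% held the former and 2.98% the latter.
Nlrp3 (chr11:59541319-59541568, plus strand): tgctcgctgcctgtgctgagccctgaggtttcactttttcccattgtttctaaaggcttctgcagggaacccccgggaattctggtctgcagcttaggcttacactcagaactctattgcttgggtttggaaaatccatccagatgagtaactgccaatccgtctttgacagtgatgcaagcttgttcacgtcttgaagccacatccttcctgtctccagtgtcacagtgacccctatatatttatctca
Mefv (chr16:3718125-3718374, minus strand): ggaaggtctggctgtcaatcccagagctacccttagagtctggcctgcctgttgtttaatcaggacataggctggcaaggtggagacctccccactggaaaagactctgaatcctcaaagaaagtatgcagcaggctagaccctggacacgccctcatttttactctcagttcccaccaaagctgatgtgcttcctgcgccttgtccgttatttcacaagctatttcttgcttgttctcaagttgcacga

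The remaining sensors belong to the NAIP/NLRC4 inflammasome, in which NAIP proteins bind bacterial flagellin (Naip5) or secretion-system rod protein (Naip2) and then recruit NLRC4. Nlrc4 (gene 268973, chr17:74426255-74459144, minus strand, 9 exons) was measured at only 73.0 to 174 counts per library. Its level was 5.42, 5.62 and 6.22 CPM in WT PBS and 4.57, 4.16 and 4.74 CPM in WT LPS. In KO-labelled cells it was 5.355, 5.83 and 5.88 CPM with PBS and 6.87, 5.88 and 8.15 CPM with LPS, where the lowest LPS library overlapped the PBS group. Nlrc4 fell by 0.36 ± 0.13 on the log2 scale in WT (adjusted p = 0.017) and rose by 0.29 ± 0.12 in KO-labelled cells (adjusted p = 0.033), a rise that turned negative under upper-quartile scaling (-0.07) and library totals (-0.51). The WT call was lost without WT PBS replicate 3 (-0.30) or WT LPS replicate 2 (-0.31) and with DESeq2 (-0.31), and the KO call without KO PBS replicate 1 (0.24) or 2 (0.30), KO LPS replicate 1 (0.30) or 3 (0.17), with another filter on low counts (0.25 with none), or in a fit to the KO-labelled libraries alone (0.28, adjusted p = 0.054). The whole-transcriptome median shifted by -0.36 and -0.80 with these scalings, and by -0.31 and -0.66 in WT.

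Naip2 (gene 17948, chr13:100144063-100202122, minus strand, 16 exons) stood at 81.6, 79.9 and 81.5 CPM in WT PBS and 97.9, 87.5 and 87.15 CPM in WT LPS. It stood at 84.8, 85.15 and 87.7 CPM in KO PBS and 129.8, 108 and 130 CPM in KO LPS. The groups did not overlap by treatment, but the distance in WT was small. Its log2 change with LPS was 0.17 ± 0.07 in WT (adjusted p = 0.047), with a negative sign under upper-quartile scaling (-0.15) and library totals (-0.50), and 0.11 without WT LPS replicate 1, which did not pass. The WT call was also lost without WT PBS replicate 2 (0.15) or 3 (0.17), KO LPS replicate 1 (0.17) or the filter (0.13). In KO-labelled cells it rose by 0.51 ± 0.07 (adjusted p = 5.1e-06), with a negative sign under library totals alone (-0.29). Naip5 (gene 17951, chr13:100211735-100250930, minus strand, 14 exons) stood at 30.3, 31.45 and 32.6 CPM in WT PBS and 31.7, 29.95 and 29.4 CPM in WT LPS. These groups overlapped, and the WT difference of -0.05 ± 0.07 did not pass (adjusted p = 0.49), though under upper-quartile scaling (-0.36, adjusted p = 5.0e-05) and library totals (-0.71, adjusted p = 1.8e-08) Naip5 passed as lower. In KO-labelled cells Naip5 fell by 0.31 ± 0.06 (adjusted p = 2.6e-04), from 50.5, 46.5 and 45.2 CPM with PBS to 37.99, 37.1 and 39.6 CPM with LPS, a fall that came to -0.67 and -1.11 with those scalings.

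Naip2 and Naip5 are neighbours on chromosome 13, with 9612 bases between them, and share stretches of sequence with each other and with further Naip genes. Of all 50-base stretches (the read length) in the transcripts of Naip5, 36.9% also occurred in a transcript of another gene, 22.3% in Naip6 and 8.83% in Naip2. For Naip2 the share in any other gene was 19.1%, with 9.4% in Naip5. For Nlrc4 the share in any other gene was 1.10%. In all 12 libraries these 3 genes carried estimated counts that were not whole, so reads had been shared between genes, and their values are uncertain to that extent. The other 7 genes held whole counts, apart from Casp8 in 1 library. The likeness reaches into the promoters. The 250 bases before each listed start (for Naip5 a start inside the gene span given above) held 57 bases in runs of at least 12 that the other window also held, and the longest run was 34 bases. These runs, in capitals, lie close to the start, and no such run was found further upstream.
Naip2 (chr13:100202123-100202372, minus strand): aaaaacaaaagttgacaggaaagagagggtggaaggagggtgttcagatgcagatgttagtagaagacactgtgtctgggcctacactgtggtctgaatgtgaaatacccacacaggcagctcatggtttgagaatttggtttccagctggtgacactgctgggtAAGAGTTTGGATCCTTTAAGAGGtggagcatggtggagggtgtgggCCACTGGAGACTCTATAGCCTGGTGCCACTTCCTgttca
Naip5 (chr13:100247337-100247586, minus strand): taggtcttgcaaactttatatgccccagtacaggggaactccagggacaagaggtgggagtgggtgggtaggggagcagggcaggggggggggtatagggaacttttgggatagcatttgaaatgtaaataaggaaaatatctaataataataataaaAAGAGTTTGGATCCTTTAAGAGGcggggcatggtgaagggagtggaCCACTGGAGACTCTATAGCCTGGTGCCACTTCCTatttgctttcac

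The adaptor went the other way. Pycard (gene 66824, chr7:127991373-127993867, minus strand, 3 exons) encodes ASC, which joins sensors to caspase-1. Its level was 50.15, 51.8 and 53.0 CPM in WT PBS and 40.4, 47.4 and 45.3 CPM in WT LPS. The KO-labelled libraries held 54.9, 58.7 and 60.2 CPM with PBS and 31.0, 34.3 and 28.4 CPM with LPS. No library overlapped between treatments under either label, and the KO LPS libraries were the lowest of all. Pycard fell by 0.22 ± 0.07 on the log2 scale in WT (adjusted p = 0.014) and by 0.89 ± 0.08 in KO-labelled cells (adjusted p = 1.3e-08), a 1.86-fold reduction. Upper-quartile scaling and library totals, with the shifts of all genes given above, made these changes -0.53 and -0.88 in WT and -1.25 and -1.69 in KO-labelled cells. In the GENCODE transcripts 11.5% of its 50-base stretches were also in Gm45205, a predicted gene, though its counts were whole in all libraries.

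The caspases rose together. Casp1 (gene 12362, chr9:5298517-5307281, plus strand, 10 exons) encodes the caspase that matures interleukin-1β and interleukin-18. It stood at 34.3, 36.8 and 32.3 CPM in WT PBS and at 208, 281 and 273 CPM in WT LPS. For the KO label the levels were 42.7, 39.7 and 37.6 CPM with PBS and 342, 370.5 and 322 CPM with LPS. Treatment groups did not overlap, and all KO LPS libraries exceeded all WT LPS libraries. The rise was 7.37-fold in WT (2.88 ± 0.10 on the log2 scale, adjusted p = 2.4e-13) and 8.62-fold in KO-labelled cells (3.11 ± 0.10, adjusted p = 8.0e-14).

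Casp4 (gene 12363, chr9:5308849-5336791, plus strand, 9 exons) begins 1567 bases after the end of Casp1 on the same strand. It encodes caspase-11, the receptor for LPS that has entered the cytosol. Its level was 6.11, 6.65 and 7.04 CPM in WT PBS and 151, 222 and 205 CPM in WT LPS. Under the KO label Casp4 stood at 5.18, 5.72 and 5.46 CPM with PBS and 279, 298 and 251 CPM with LPS. The groups were far apart, and it rose 29.2-fold in WT (4.87 ± 0.14, adjusted p = 6.8e-14) and 50.5-fold in KO-labelled cells (5.66 ± 0.14, adjusted p = 1.4e-14). WT LPS replicate 1 was the lowest of its group for Casp1, Casp4 and Casp8, and without it the WT responses were 3.005, 5.01 and 1.998.

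Among the 9 genes with a window, only Casp4 matched the NF-κB-like letters. The more upstream of its 2 overlapping windows is shown for that reason, with 3 matches in capitals, 93 to 84, 39 to 30 and 14 to 5 bases before the start, of which the 2 nearest the start are on the opposite strand. No window of Casp1, Nlrp3 or Mefv held one, and a link between these letters and the rises was not tested. The letters were chosen after the expression values were known, a match is not evidence of binding, and Pycard was the only gene of the 9 with a PU.1-like match (GAGGAAGT, in 2.44% of all windows). No window of the 9 genes held the AP-1-like TGANTCA or the STAT-like TTCNNNGAA, which occurred in 6.75% and 7.02% of all windows.
Casp4 (chr9:5308599-5308848, plus strand): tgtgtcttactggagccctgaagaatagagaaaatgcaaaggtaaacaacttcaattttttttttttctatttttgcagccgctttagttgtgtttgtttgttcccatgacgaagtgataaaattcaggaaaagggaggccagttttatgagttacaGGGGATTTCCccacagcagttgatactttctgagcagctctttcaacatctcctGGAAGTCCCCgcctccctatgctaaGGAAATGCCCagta

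Casp8 (gene 12370, chr1:58795233-58847503, plus strand, 9 exons) encodes an initiator caspase that can be recruited to inflammasomes and that restrains necroptosis. It stood at 51.6, 52.5 and 46.25 CPM in WT PBS and 164, 205 and 195.5 CPM in WT LPS. The KO-labelled libraries stood at 57.7, 56.3 and 57.2 CPM with PBS and 243, 248 and 239.8 CPM with LPS. The groups were separate, and the rise was 3.76-fold in WT (1.91 ± 0.08, adjusted p = 4.2e-13) and 4.27-fold in KO-labelled cells (2.09 ± 0.08, adjusted p = 1.0e-13).

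Gsdmd (gene 69146, chr15:75862144-75867408, plus strand, 11 exons) encodes the pore former cut by caspase-1 and caspase-11. Its level was 30.3, 32.05 and 31.35 CPM in WT PBS and 159.8, 167 and 169.8 CPM in WT LPS. In KO-labelled cells it was 30.0, 29.9 and 31.2 CPM with PBS and 188, 193 and 182 CPM with LPS. The rise was 5.30-fold in WT (2.41 ± 0.06, adjusted p = 3.4e-16) and 6.18-fold in KO-labelled cells (2.63 ± 0.06, adjusted p = 9.6e-17).

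Of the WT responses not yet given without WT LPS replicate 1, those of Mefv (5.35), Gsdmd (2.43), Nlrc4 (-0.37) and Pycard (-0.16, adjusted p = 0.0495) still passed, and that of Naip5 (-0.08) did not.

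**Figure D2:**
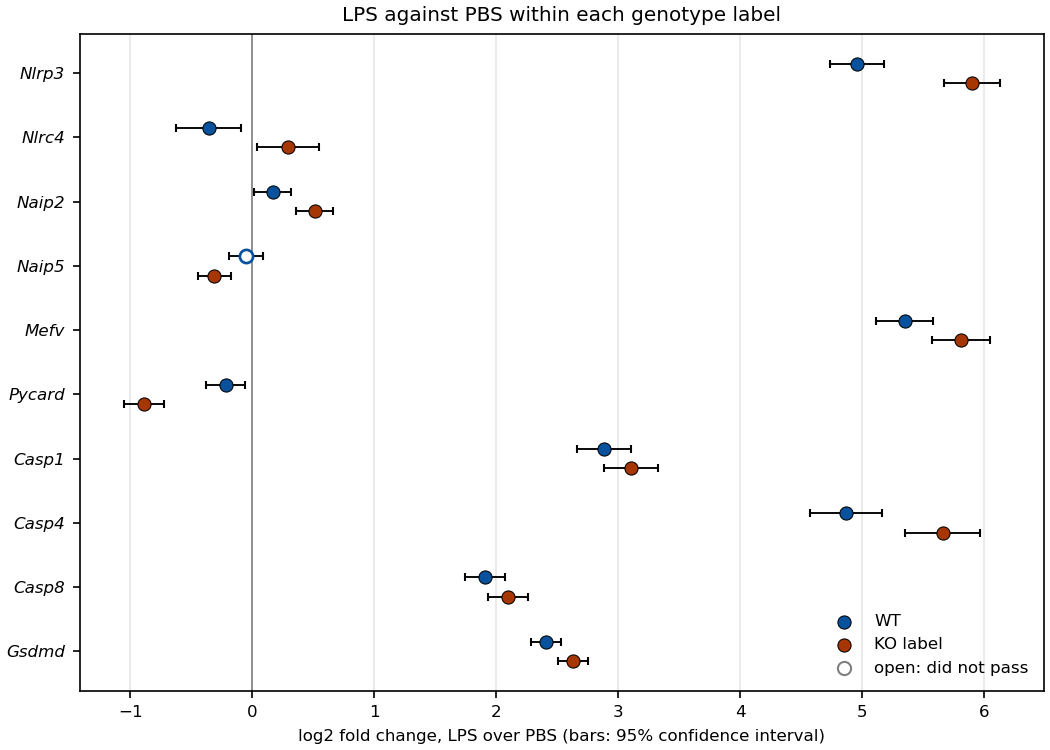
Log2 fold change of LPS over PBS for the 10 genes in WT (blue) and KO-labelled (brown) macrophages, with bars for the 95% confidence interval and an open symbol where the test was not passed. Mefv, Nlrp3 and Casp4 lie at 4.87 to 5.35 in WT and 5.66 to 5.90 in KO-labelled cells, Casp1, Gsdmd and Casp8 at 1.91 to 3.11, and Nlrc4, Naip2, Naip5 and Pycard between -0.89 and 0.51.

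Levels of different genes were compared per kilobase of the longest coding transcript. Pycard was left out, because its longest GENCODE transcript (3800 bases) exceeds the gene's RefSeq span (2495 bases). In WT PBS the order ran from Casp1 (23.0 ± 1.53 CPM per kilobase, SD, n = 3) through Casp8 (19.4 ± 1.31), Gsdmd (17.4 ± 0.50), Naip2 (16.8 ± 0.20), Naip5 (6.04 ± 0.22), Casp4 (4.601 ± 0.33) and Nlrp3 (3.04 ± 0.14) to Mefv (1.32 ± 0.10) and Nlrc4 (1.22 ± 0.09). Gsdmd overlapped Naip2, and Mefv overlapped Nlrc4, so those neighbours were not separated by their spread. In WT LPS Casp1 (170 ± 26.6), Casp4 (134 ± 26.0), Nlrp3 (94.1 ± 13.7) and Gsdmd (92.4 ± 2.90) each overlapped the next in that order. In KO LPS Casp1 came first (230.3 ± 16.3), above the overlapping pair of Nlrp3 (199 ± 13.6) and Casp4 (192 ± 16.5), followed by Gsdmd (105 ± 2.90). Nlrc4 was lowest in both LPS groups, at 0.95 ± 0.06 in WT and 1.47 ± 0.24 in KO-labelled cells. With the length of all coding exons joined in place of the longest transcript, 8 of 36 levels moved by more than their SD, and Gsdmd and Naip2 changed places in WT PBS (16.5 and 16.7). Those levels belong to Casp8, Gsdmd and Mefv.

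**Figure D3:**
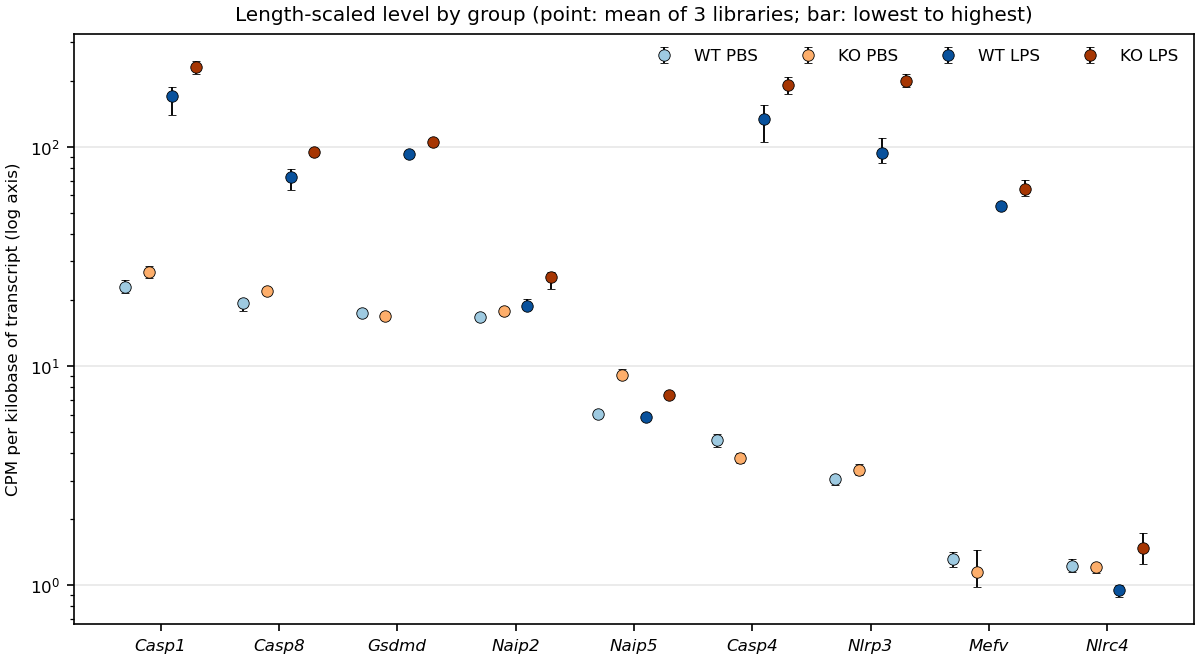
Length-scaled level (CPM per kilobase of the longest coding transcript, log axis) of 9 genes in the 4 groups, with points at the mean of 3 libraries, bars from the lowest to the highest library, and genes ordered by WT PBS. Casp1 is highest in every group, and the Nlrp3 level rises from 3.04 in WT PBS to 94.1 in WT LPS and 199 in KO LPS.

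At rest, the median size of the log2 difference between labels was 0.18 over these genes, near the 0.16 over all genes. Under PBS, 1 of the 10 passed (25.3% of all genes passed, 12.3% higher and 13.0% lower in KO-labelled cells), and the share was below that background. It was Naip5, 1.51-fold higher in KO-labelled cells (0.59 ± 0.06, adjusted p = 4.5e-06), with no overlap between the labels. The median log2 difference over the 10 genes was 0.11, against 0.0004 over all genes. The libraries of the labels were apart in 7 of the 10 genes (48.1% of all genes), but the remaining 6 did not pass. Differences were 0.21 ± 0.10 for Casp1 (adjusted p = 0.14), 0.19 ± 0.08 for Casp8 (0.084), 0.17 ± 0.07 for Pycard (0.11), 0.14 ± 0.10 for Nlrp3 (0.37), 0.08 ± 0.07 for Naip2 (0.43) and -0.28 ± 0.16 for Casp4 (0.23). Mefv (-0.20 ± 0.14), Gsdmd (-0.04 ± 0.06) and Nlrc4 (-0.02 ± 0.11) overlapped between labels and did not pass, though Mefv passed without KO PBS replicate 3 (-0.38, adjusted p = 0.043). The interval for Gsdmd ran from -0.16 to 0.08.

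The call at rest depended on the estimate of the spread. Without WT LPS replicate 1, which is in neither PBS group but enters the shared estimate, 5 genes passed at nearly the same differences, with Naip5, Pycard, Casp1 and Casp8 higher and Casp4 lower, where 31.8% of all genes passed. A fit to the PBS libraries alone passed the same number, also 4 higher and 1 lower, where 39.7% of all genes passed.

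Under LPS the labels differed for every gene examined. All 10 passed, 9 higher and Pycard lower in KO-labelled cells, where 41.4% of all genes passed, 22.1% higher and 19.3% lower. In all 10 the KO LPS and WT LPS libraries did not overlap (45.6% of all genes). The median log2 difference was 0.40, against 0.0006 over all genes, and the median size was 0.44 against 0.27. Nlrp3 differed most, 2.12-fold higher in KO-labelled cells (1.08 ± 0.09, adjusted p = 1.1e-07), and 5.30% of all genes differed by more in size. Among the other genes higher in KO-labelled cells, the next were Nlrc4 (0.63 ± 0.13, adjusted p = 0.0011), Casp4 (0.52 ± 0.11, adjusted p = 0.0017), Casp1 (0.44 ± 0.10, adjusted p = 0.0016) and Naip2 (0.43 ± 0.07, adjusted p = 1.9e-04). Smaller differences were those of Casp8 (0.37 ± 0.07), Naip5 (0.33 ± 0.07), Mefv (0.26 ± 0.08, adjusted p = 0.018) and Gsdmd (0.18 ± 0.05, adjusted p = 0.012). Pycard was 1.42-fold lower (-0.51 ± 0.08, adjusted p = 1.0e-04).

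Without WT LPS replicate 1, all 10 genes still passed in the same directions, with 41.0% of all genes passing. Nlrp3 then differed by 1.21, Nlrc4 by 0.65, Naip2 by 0.49, Naip5 by 0.36, Mefv by 0.25, Pycard by -0.57, Casp1 by 0.32, Casp4 by 0.37, Casp8 by 0.28 and Gsdmd by 0.15. Mefv and Gsdmd did not pass under upper-quartile scaling (0.19 and 0.11) or library totals (0.17 and 0.09), nor did Mefv without KO LPS replicate 1 (0.19) or Gsdmd in a fit to the LPS libraries alone (0.17), and the sign of all 10 was the same under every scaling tried.

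**Figure D4:**
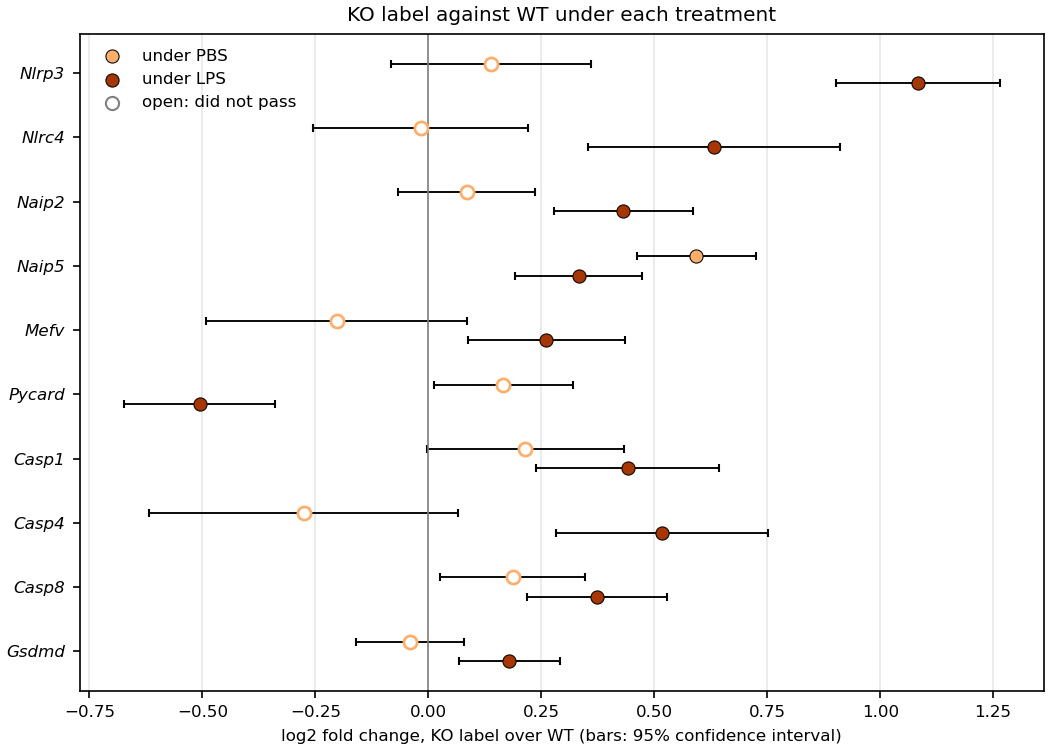
Log2 fold change of the KO label over WT for the 10 genes under PBS (pale) and LPS (dark), with bars for the 95% confidence interval and open symbols where the test was not passed. Under PBS only Naip5 (0.59) is filled, whereas under LPS all 10 are, from -0.51 for Pycard to 1.08 for Nlrp3.

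The difference between the LPS responses was tested as an interaction of genotype label with LPS. Of the 10 genes, 5 passed (18.0% of all genes passed, 9.78% with a more positive and 8.26% with a more negative response in KO-labelled cells). The response was more positive for Nlrp3 by 0.95 ± 0.13 on the log2 scale (adjusted p = 1.8e-04), Casp4 by 0.79 ± 0.19 (adjusted p = 0.012), Nlrc4 by 0.65 ± 0.17 (adjusted p = 0.016) and Naip2 by 0.35 ± 0.10 (adjusted p = 0.026). It was more negative for Pycard (-0.67 ± 0.11, adjusted p = 4.5e-04). The fitted LPS change of Nlrc4 passed with opposite signs under the labels, but under library totals both changes were negative and passed (-1.02 and -0.51), and under upper-quartile scaling they were -0.67 and -0.07. Mefv (0.46 ± 0.16, adjusted p = 0.054), Naip5 (-0.26 ± 0.09, adjusted p = 0.058), Gsdmd (0.22 ± 0.08, adjusted p = 0.060), Casp1 (0.23 ± 0.14, adjusted p = 0.30) and Casp8 (0.19 ± 0.11, adjusted p = 0.25) did not pass. Without KO PBS replicate 3, Mefv (0.63) and Naip5 (-0.32) passed, and Mefv also without KO LPS replicate 2 (0.52). The Naip2 call was lost in 10 of the 12 fits that left out a library, at adjusted p values up to 0.084, and under library totals (0.21, adjusted p = 0.14), though it held without WT LPS replicate 1 (0.40, adjusted p = 0.0033). Without that library the values were 1.07 for Nlrp3, 0.65 for Casp4, 0.66 for Nlrc4 and -0.73 for Pycard, and these 4 passed in all 12 such fits. For the genes that did not pass they were 0.10 for Casp1, 0.097 for Casp8, 0.46 for Mefv, 0.20 for Gsdmd and -0.23 for Naip5, and none of these 5 passed without that library.

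To set the 10 genes in their pathway, 75 symbols of related genes were listed by role, some of them older names of genes also listed. Of these symbols 69 were in the tables, and 64 were tested. With LPS 57 of the 64 passed in WT (41 higher and 16 lower, or 32 and 30 under library totals) and 58 in KO-labelled cells (42 higher and 16 lower, or 30 and 32 under library totals), beside 76.7% and 79.9% of all genes. Between labels 22 passed under PBS (9 higher and 13 lower in KO-labelled cells) and 37 under LPS (25 higher and 12 lower), and 23 passed the interaction. These numbers stand beside 25.3%, 41.4% and 18.0% of all genes in the same contrasts, and the 41.4% under LPS is also the background of the counts by role below. Without WT LPS replicate 1, 38 of the related genes passed between labels under LPS. The median log2 difference of the list under LPS was 0.10, against 0.40 for the 10 genes and 0.0006 for all genes. Its median size was 0.30.

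Among other sensors, 5 of 8 passed between labels under LPS, 4 higher and 1 lower. The lower was Nlrp10 (-1.34 ± 0.23, at 0.904 against 2.30 CPM), named after its values were seen. Naip6, another flagellin receptor and the gene sharing most 50-base stretches with Naip5, was higher in KO-labelled cells under PBS (37.2 against 24.8 CPM, 0.59 ± 0.07) and LPS (37.8 against 26.4 CPM, 0.52 ± 0.07). Reads can be shared between Naip5 and Naip6, so these are not separate measurements. Naip1, a receptor for secretion-system needle protein, fell 12.1-fold with LPS in WT (8.35 to 0.68 CPM) and 13.9-fold in KO-labelled cells, without a difference between labels that passed. The DNA sensor Aim2 rose to 92.1 CPM with LPS in WT and to 108 CPM under the KO label, rises of 4.28-fold and 4.23-fold. Nlrp1b fell 4.39-fold in WT and 3.99-fold in KO-labelled cells, and was higher under the KO label with PBS (0.74 ± 0.11) and with LPS (0.88 ± 0.21, adjusted p = 0.0035).

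Triggers and cofactors of NLRP3 and of the caspase-11 pathway (12 tested) split between labels under LPS, 4 higher and 2 lower. Guanylate-binding proteins help to expose LPS to caspase-11. Gbp2 went from 11.1 to 2578 CPM in WT and from 6.39 to 2961 CPM in KO-labelled cells, and its interaction was 1.00 ± 0.17 (adjusted p = 0.0011). Between labels Gbp2 was lower with PBS (-0.80 ± 0.14) and did not pass with LPS (0.20 ± 0.10, adjusted p = 0.14). Gbp5 went from 1.48 to 1974 CPM in WT and from 1.33 to 2461 CPM in KO-labelled cells. Gbp7 was 1.58-fold higher in KO LPS (587 against 372 CPM, adjusted p = 7.2e-07), and Gbp3 1.40-fold higher. Of 6 pyrin and adaptor partners, 3 were higher and 2 lower in KO LPS. Pstpip2, a phosphatase-binding adaptor, was higher by 0.59 ± 0.07 (143 against 95.3 CPM) and the kinase Pkn2 by 0.50 ± 0.07. Pstpip1, which binds pyrin, was lower at rest in KO-labelled cells (42.8 against 63.0 CPM, -0.56 ± 0.07) and with LPS (-0.45 ± 0.07).

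Of 7 partners of caspase-8 and necroptosis genes, 3 were higher and 1 lower in KO LPS. Mlkl, the necroptotic pore former, stood at 408 CPM in KO LPS against 291 CPM in WT LPS (0.49 ± 0.06). Zbp1, a nucleic acid sensor, was lower in KO PBS (-0.76 ± 0.19), did not pass between labels with LPS (0.24 ± 0.16, adjusted p = 0.26) and had an interaction of 0.99 ± 0.25 (adjusted p = 0.019). Ripk3, the kinase that activates MLKL, was lower under both treatments in KO-labelled cells (-0.54 ± 0.08 with PBS and -0.54 ± 0.09 with LPS). Of 6 other caspases, 2 were lower in KO LPS. Casp9, the initiator caspase of the mitochondrial pathway of apoptosis, was lower there (21.95 against 29.6 CPM, -0.43 ± 0.08).

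Among the related genes, Il1a and Il1b differed most in size between labels under LPS. Of 5 genes for cargo and substrates, 3 were higher and 1 lower in KO LPS. Il1a stood at 8419 ± 111 CPM in KO LPS against 2297 ± 77.3 CPM in WT LPS, 3.67-fold higher (1.87 ± 0.07, adjusted p = 9.0e-12), and 1.85 without WT LPS replicate 1. Il1b stood at 8552 ± 311 against 2300 ± 125 CPM, 3.72-fold higher (1.90 ± 0.25, adjusted p = 2.6e-04), and 1.91 without that library. Il18 was at 139 ± 7.11 against 98.8 ± 17.8 CPM (0.50 ± 0.10, adjusted p = 0.0014). Il18bp, which encodes the protein that binds and neutralises interleukin-18, was the lower gene of this role (-0.53, adjusted p = 0.0031), and was lower with PBS too (-0.90, adjusted p = 0.0012). Ninj1, which ruptures the plasma membrane of dying cells, was lower in KO PBS (-0.27 ± 0.05) and higher in KO LPS (277 against 252 CPM, 0.14 ± 0.05, adjusted p = 0.036), and Gsdme, another gasdermin, fell 2.46-fold with LPS in WT.

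Of 8 inhibitors, 3 were higher and 2 lower in KO LPS. Trim30a was 1.49-fold higher (1211 against 813 CPM), and Serpinb9, a protease inhibitor, was 1.69-fold lower (28.3 against 47.8 CPM, adjusted p = 3.3e-06). Of 6 membrane repair genes, members of the ESCRT machinery that removes gasdermin pores, 3 were higher in KO LPS and none passed as lower, among them Vps4b (0.45 ± 0.05) and Chmp2a (0.33 ± 0.07). Of 4 transcription factors of these genes, only Irf8 passed, 3.23-fold lower in KO LPS (207 ± 8.72 against 667 ± 34.2 CPM, adjusted p = 5.9e-12), with a difference of -1.69, or -1.70 without WT LPS replicate 1. IRF8 is known to drive Naip transcription. Its mRNA rose 2.21 on the log2 scale with LPS in WT and 0.47 in KO-labelled cells. Under library totals the mean of the KO-labelled cells instead fell, from 195 CPM with PBS to 155 CPM with LPS. Irf1 (346 and 315 CPM) and Irf2 (244.5 and 254 CPM) had no difference between labels under LPS that passed.

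**Figure D5:**
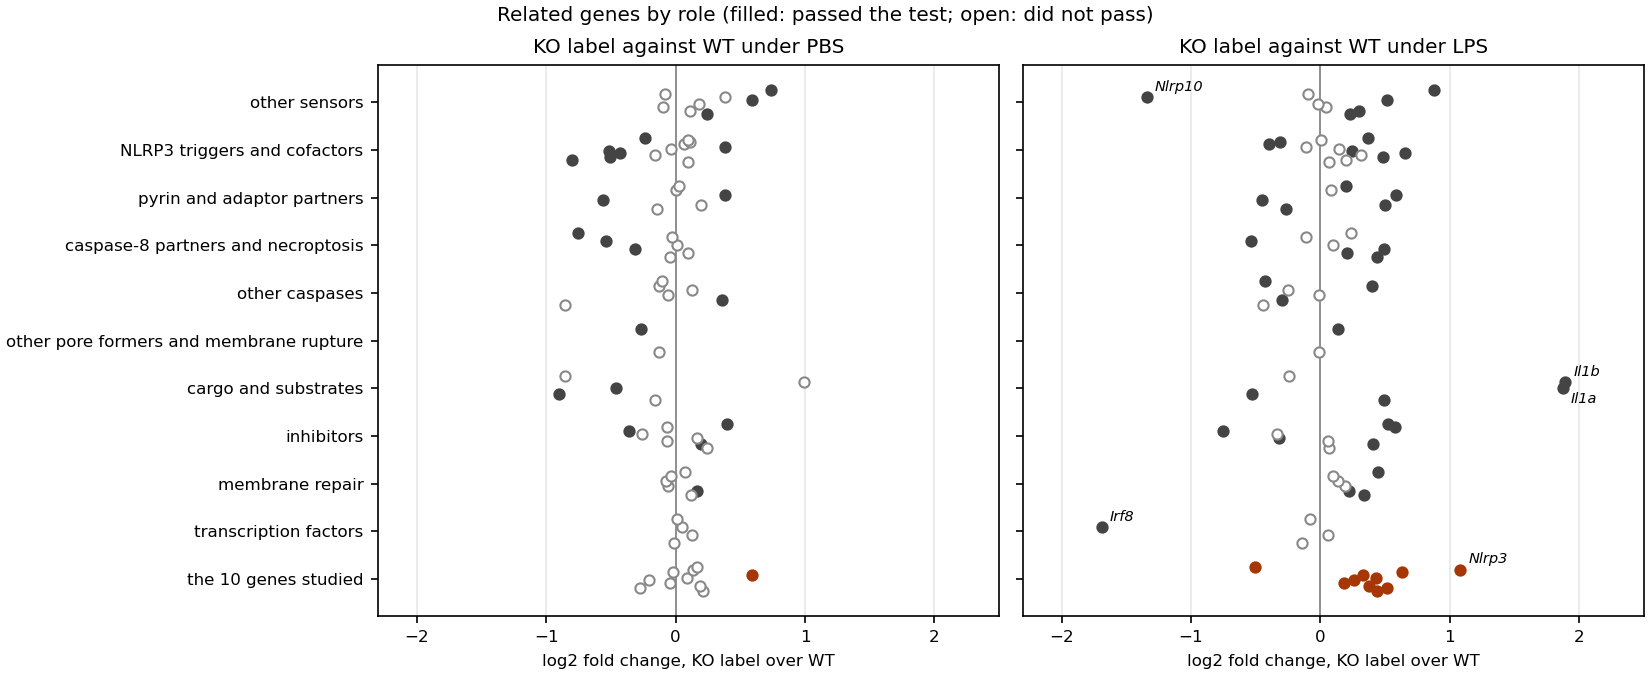
Log2 fold change of the KO label over WT under PBS (left) and LPS (right) for 64 related genes by role and for the 10 genes studied (brown), filled where the test was passed and open where not. Under LPS the 10 genes studied are all filled, Il1a (1.87) and Il1b (1.90) lie furthest right and Irf8 (-1.69) furthest left.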

How the data were processed

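Single-end 50-base reads had been made on a BGISEQ-500 sequencer for 12 libraries, 3 per group. What the authors deposited are expected counts, that is estimated counts for each gene, without scaling between libraries. The submitters' processing notes name Bowtie2, RSEM 1.3.1 and GRCm38.p6, whereas the methods name STAR and HTSeq. Decimals occurred in 24.6% to 26.9% of a library's values, which were rounded before modelling. RSEM shares reads between similar genes, which bears most on the Naip genes.

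After edgeR's filterByExpr (4 groups, 12064 genes left) and TMM scaling, edgeR 4.0.16 in R 4.3.3 fitted a quasi-likelihood model with robust dispersions to all 12 libraries, with a mean per group. Tests were two-sided, with Benjamini-Hochberg adjustment across the 12064 genes and a threshold of 0.05. TMM factors were 1.26 to 1.31 for PBS and 0.744 to 0.808 for LPS libraries. The typical biological coefficient of variation was 6.99%. Intervals are at 95%, and the floor of 3 counts covers counting error only.

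The genes, the related list and the tests were chosen with earlier results of these data known. Beside the 10 genes and Ythdf1, each contrast names up to 2 related genes per role, those with the largest change among genes that passed and reached 5 CPM in the higher group's mean. Aim2, Naip1, Nlrp1b, Nlrp10, Gbp2, Zbp1, Pstpip1, Il18, Il18bp, Irf1, Irf2 and Irf8 are also given where this rule did not name them, chosen after their values were seen. A related gene that this rule would name is not reported here. Listed but not in the tables were 6 symbols, among them Irgb10, Dfna5 and Gsdmdc1, older names of Gm12250, Gsdme and Gsdmd, which are in the tables. Alternatives were RLE scaling, upper-quartile scaling, library totals, no filter, a filter of 10 counts in each library, DESeq2 1.42.0 (no independent filtering), fits to the compared groups alone, a replicate block, and leaving out each library. The length of joined exons was chosen after seeing the data. Gene positions are from RefSeq (GRCm38.p6), and exons, lengths and 50-base stretches from GENCODE M21. Raw reads and protein sequences were not used here.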

Additional observations from a re-analysis of the deposited data

Results flagged for a closer look

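The LPS responses of the genotype labels differed by the interaction test (edgeR, adjusted over all genes) for 5 of the 10 genes. The response under the KO label was more positive for Nlrp3 (0.95), Casp4 (0.79), Nlrc4 (0.65) and Naip2 (0.35) and more negative for Pycard (-0.67). The Naip2 difference was lost in 10 of the 12 fits without a library and under library totals (0.21, adjusted p = 0.14). Ythdf1 itself also differed (-0.42), at 43.5 CPM in WT PBS, 57.2 in KO PBS, 202 in WT LPS and 198 in KO LPS. Among the related genes named for this contrast, the more positive responses were those of Il1a (2.34), Gbp7 (1.08), Gbp2 (1.00), Zbp1 (0.99), Mlkl (0.80), Il18 (0.65), Trim30a (0.64), Ninj1 (0.41) and Vps4b (0.38). More negative responses were found for Irf8 (-1.74), Casp2 (-0.66) and Nlrc3 (-0.49). Causes of these differences were not tested.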

How the results depend on the processing

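Over the 10 genes and 5 contrasts, 990 values came from 8 alternatives and 12 fits without a library, of which 354 from the alternatives and 569 from the fits kept their direction and their side of the threshold. Under PBS, the number of genes differing between labels (1) was 3 with library totals and 5 with only the libraries compared, and ran from 1 to 5 without a library (5 without WT LPS replicate 1 and 2 without KO PBS replicate 3). Signs turned under library totals for Naip2 (LPS in WT -0.50, in KO-labelled cells -0.29), Nlrc4 (LPS in KO-labelled cells -0.51, labels under PBS 0.0315), Ninj1 (LPS in KO-labelled cells -0.48) and Gsdmd (labels under PBS 0.0079). The Irf8 response to LPS in KO-labelled cells also turned under library totals (mean of 195 CPM with PBS and 155 CPM with LPS). Under upper-quartile scaling signs turned for Naip2 in WT (-0.15), Nlrc4 (-0.066) and Ninj1 (-0.036) in KO-labelled cells. The near-zero difference of Nlrc4 between labels under PBS was 5.1e-05 with RLE and 1.1e-04 with DESeq2, and ran from -0.034 to 0.052 without a library. That of Ythdf1 under LPS was 0.0115 without WT LPS replicate 1 and ran from -0.0552 to 0.0115 over such fits. Library totals moved the median of all genes by -0.66 (WT) and -0.80 (KO label) for LPS and by -0.14 for the interaction. The causes were not tested. Of the related genes, upper-quartile scaling gave 35 higher and 21 lower with LPS in WT and 34 and 23 in KO-labelled cells. The interaction passed for Naip5 in 5 and for Mefv in 2 of the 7 alternatives. Correlations between libraries of the same replicate number did not settle whether these numbers pair the samples. They were -0.04 to 0.22 between treatments within a label and -0.26 to 0.25 between labels (5 of 12 over 0.1). With the replicate block the same numbers of the 10 genes passed (9, 10, 1, 10 and 5). Low counts limit Nlrc4, and at rest also Mefv and Casp4 (Casp4 at 148 to 197 counts per PBS library).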
